A study of Mus musculus with 24 samples.

Results

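Cx3cr1, Gpr34, Fcrls, Tmem119, Siglech, P2ry12, P2ry13, Sall1 and Olfml3 are genes best known as markers of microglia, the macrophages inside the brain. Their RNA was followed in macrophages sorted from dura mater, the tough outermost of the brain's coverings, and from the diaphragm muscle under the lungs. The genes were taken by symbol from a table of Ensembl identifiers, and all 9 of them were found among its 41388 genes. The animals of both tissues were wild-type C57BL/6 mice of 17 weeks at steady state, and the dural protocol describes perfusion through the heart, digestion and bulk sorting by flow cytometry. The series title instead concerns T cell transfer into mice deficient for RAG-1. The labels name 3 macrophage subsets in each tissue (C1, C2 and C3), but no column of the count table could be tied to a subset. The dural columns carry a mark (P6, P5 or P4) and a number (1, 3 or 4), and the diaphragm columns a number only. The sources used here do not say what the marks and numbers stand for.

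Microglia differ from the macrophages at the borders of the brain, in the dura and around vessels, which carry the mannose receptor Mrc1, the hyaluronan receptor Lyve1 and the scavenger receptor Cd163. Tmem119, P2ry12 and the transcription factor Sall1 are widely used to tell microglia from border macrophages, while Cx3cr1 is shared with monocytes and many tissue macrophages. In microglia much of this gene set depends on signals of transforming growth factor beta (TGF-beta). Cx3cr1 is the receptor of fractalkine, a chemokine that the proteases Adam10 and Adam17 release from the cell surface. P2ry12 and P2ry13 are receptors of adenosine diphosphate, Gpr34 is a receptor of lysophosphatidylserine, and Siglech is a receptor that signals through the adaptor Tyrobp.

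The table gave 9 dural libraries, 3 of each mark, with 10457920 to 24077834 counts, and 7 diaphragm libraries with 11053351 to 30132295 counts. Diaphragm columns of the same number were added, since 6 such pairs differed by little more than the sampling noise, and numbers 4 and 5 were left out because they were nearly empty. Levels are counts scaled to a library of 1000000 (CPM), with library sizes scaled by TMM factors. Macrophage markers were high in every library: the 10 listed genes summed to 20103 to 25066 CPM in dura and 20373 to 27448 CPM in diaphragm, and Csf1r, the receptor of macrophage colony stimulating factor, was at 3193 CPM or more throughout. The labels do not say that libraries came from separate animals. The p-values therefore measure the spread between these libraries, which may be technical. Each dural number occurs with all 3 marks, and a batch that went with tissue could not be told apart from tissue.

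Of the 9 genes, P2ry12 and P2ry13 lie side by side on chromosome 3, and both sit inside Med12l, which runs on the opposite strand. P2ry12 spans chr3:59216272-59262871 and P2ry13 spans chr3:59207892-59210882, both on the minus strand of GRCm38. Gpr34 (chrX:13632089-13640858, plus strand) lies inside Cask on the opposite strand, with 0 shared exon bases. The kit was not stranded. Med12l had 573 counts over all 16 libraries, against 33394 for P2ry12 and 34657 for P2ry13. It shares 9 exon bases with P2ry12 and 0 with P2ry13. Cask had 14271 counts over all 16 libraries, and Gpr34 had 34039 in the dural and 13464 in the diaphragm libraries. Fcrls (chr3:87250758-87263738, minus strand) and Siglech (chr7:55768178-55778925, plus strand) overlap no other annotated gene. The same holds for Tmem119 (chr5:113793729-113800516, minus strand), Sall1 (chr8:89027235-89044162, minus) and Olfml3 (chr3:103722222-103738001, minus). The annotation of Cx3cr1 (chr9:119901616-120069879, minus strand) runs across several neighbours. Among them is Csrnp1, with 0 shared exon bases and 305574 counts over all 16 libraries. Cx3cr1 had 175255 counts in the dural and 56877 in the diaphragm libraries. Of the 9 genes, only Cx3cr1 holds read-length sequence that also occurs in another annotated gene, namely 5 of its 4428 sequences of 75 bases, shared with Gm33858.

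The promoters of 4 members that were all lower in P6 than in P4 are shown because Siglech, Fcrls and P2ry13 hold the core GAGGAA, recognised by the macrophage factor PU.1, and P2ry12, the neighbour of P2ry13, does not. Sequences are from RefSeq on GRCm38.p6, 250 bases before to 50 after the start, and capitals mark the core on either strand (GAGGAA or TTCCTC). Siglech is chr7:55767934-55768233 (plus strand), Fcrls chr3:87263475-87263774 (minus), P2ry13 chr3:59210833-59211132 (minus) and P2ry12 chr3:59262936-59263235 (minus).
Siglech: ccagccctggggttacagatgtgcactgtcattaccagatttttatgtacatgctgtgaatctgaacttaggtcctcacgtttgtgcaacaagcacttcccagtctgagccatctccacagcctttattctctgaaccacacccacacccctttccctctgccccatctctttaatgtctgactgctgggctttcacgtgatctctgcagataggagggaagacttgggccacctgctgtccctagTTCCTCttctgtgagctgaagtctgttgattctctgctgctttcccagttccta
Fcrls: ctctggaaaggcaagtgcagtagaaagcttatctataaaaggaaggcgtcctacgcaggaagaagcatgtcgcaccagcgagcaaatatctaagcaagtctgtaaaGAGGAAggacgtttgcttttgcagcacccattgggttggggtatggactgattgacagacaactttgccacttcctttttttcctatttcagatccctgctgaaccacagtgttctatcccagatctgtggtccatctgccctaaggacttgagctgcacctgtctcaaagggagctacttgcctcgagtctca
P2ry13: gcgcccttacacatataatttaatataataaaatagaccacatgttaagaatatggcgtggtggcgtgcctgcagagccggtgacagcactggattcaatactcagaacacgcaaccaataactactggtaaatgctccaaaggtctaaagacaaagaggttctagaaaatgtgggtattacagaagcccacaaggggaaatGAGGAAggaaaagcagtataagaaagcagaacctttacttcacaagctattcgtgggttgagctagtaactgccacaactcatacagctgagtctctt
P2ry12: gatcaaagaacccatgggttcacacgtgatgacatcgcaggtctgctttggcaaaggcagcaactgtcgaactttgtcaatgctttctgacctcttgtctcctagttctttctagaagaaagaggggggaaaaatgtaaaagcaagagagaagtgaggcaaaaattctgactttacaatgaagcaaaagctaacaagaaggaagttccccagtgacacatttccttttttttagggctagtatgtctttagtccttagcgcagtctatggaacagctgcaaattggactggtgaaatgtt
With the start as position 0, the core begins at -4 in Siglech, at -144 in Fcrls and at -48 in P2ry13. The 7 members with an entry have 9 such promoters, as Sall1 has 3. Of these 9 promoters, 3 held the core, beside 28.3% of 32851 promoters of this length. A match is a description of letters and not a site of binding, and both motif and sequences were chosen with the results known. The element CAGAC or GTCTG, recognised by the SMAD factors of TGF-beta signalling, was found in 5 of the 9 and in 49.6% of all promoters.

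The marks split these genes. In libraries marked P6, Siglech, Fcrls, P2ry13, P2ry12, Gpr34 and Sall1 were lower than in P4, and Tmem119 and Cx3cr1 were higher. In edgeR's quasi-likelihood test with Benjamini-Hochberg adjustment, 6 of the 9 genes fell and 2 rose. Of all 13239 genes tested, 33.3% were called (16% higher and 17.3% lower). The members' median log2 fold change was -1.13, beside 0.00 over all genes tested. With library totals in place of TMM factors the median of all genes was -0.14, and 34.8% of called genes were higher, against 48.1% with TMM factors.

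Siglech had the largest fold change of the 9 genes in P6 against P4. It stood at 21.3, 22.2 and 17.1 CPM in the P6 libraries, at 121, 133 and 126 CPM in P5 and at 174, 158 and 167 CPM in P4 (libraries 1, 3 and 4 of each mark). All P6 values lay below all P5 values, and those below all P4 values. The log2 fold change was -3.04 ± 0.11 (SE) for P6 against P4 (edgeR adjusted p = 4.14e-09) and -2.65 ± 0.11 for P6 against P5 (edgeR adjusted p = 3.18e-08). Since these are bulk libraries, fewer cells with the RNA and less RNA per cell cannot be told apart. Siglech is also a gene of plasmacytoid dendritic cells, whose 11 markers summed to 447 to 487 CPM in P6, 590.0 to 636 CPM in P5 and 652 to 721 CPM in P4. That sum came mostly from Tcf4 and Bst2, and Ccr9, a defining marker of these cells, was at 2.26 CPM or less in every dural library. Of the 7 of these markers that were tested, 2 fell in P6 against P4. Their part in the result was not tested.

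Fcrls, an Fc receptor-like scavenger receptor, had the highest mean CPM per kb of exon of the 9 genes in each mark. In CPM it was at 802, 806 and 822 CPM in P6, at 1917, 2028 and 2079 CPM in P5, and at 2294, 2233 and 2349 CPM in P4. The P6 libraries were tightly grouped and far below the rest. The log2 fold change was -1.49 ± 0.06 for P6 against P4 (edgeR adjusted p = 7.57e-09) and -1.31 ± 0.06 for P6 against P5 (edgeR adjusted p = 4.25e-08). P5 and P4 did not overlap either, but their difference of -0.19 ± 0.06 was not called (edgeR adjusted p = 0.0789). The difference was called with DESeq2 (-0.19, DESeq2 adjusted p = 0.0329) and with library totals in place of TMM factors (-0.31, edgeR adjusted p = 0.00488).

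The paired purine receptors fell together. P2ry13 was at 66.7, 76.4 and 81.4 CPM in P6, at 145, 179 and 163 CPM in P5 and at 191, 215 and 196 CPM in P4. P2ry12 was at 101, 84.6 and 98.4 CPM in P6, at 143, 154 and 159 CPM in P5 and at 214, 194 and 217 CPM in P4. Both genes showed the order P6 below P5 below P4 with no overlap between marks. P6 against P4 gave -1.42 ± 0.11 for P2ry13 (edgeR adjusted p = 1.90e-06) and -1.13 ± 0.10 for P2ry12 (edgeR adjusted p = 3.34e-06). P6 against P5 gave -1.11 ± 0.11 for P2ry13 and -0.68 ± 0.10 for P2ry12, both called. The third purine-type receptor of the cluster, P2ry14, a receptor of UDP sugars, went the other way. It averaged 16.2 ± 3.50 CPM in P6 and 8.37 ± 2.64 CPM in P4 (SD, n = 3 each), and the log2 fold change was 0.94 ± 0.27 (edgeR adjusted p = 0.0162). P2ry12 is also a platelet gene, and the 10 platelet markers together came to 4.78 to 10.1 CPM in P6, 4.77 to 7.21 CPM in P5 and 4.99 to 10.2 CPM in P4.

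Gpr34 was at 210.3, 187 and 192 CPM in P6, at 350.5, 280.1 and 264 CPM in P5 and at 281, 258 and 266 CPM in P4. The P6 values lay below all others, while P5 and P4 overlapped. The log2 fold change was -0.44 ± 0.11 for P6 against P4 (edgeR adjusted p = 0.00708) and -0.60 ± 0.11 for P6 against P5 (edgeR adjusted p = 0.00240). Cask, which contains Gpr34 on the opposite strand, also fell in P6 against P4, by 0.50 on the log2 scale.

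**Figure D1:**
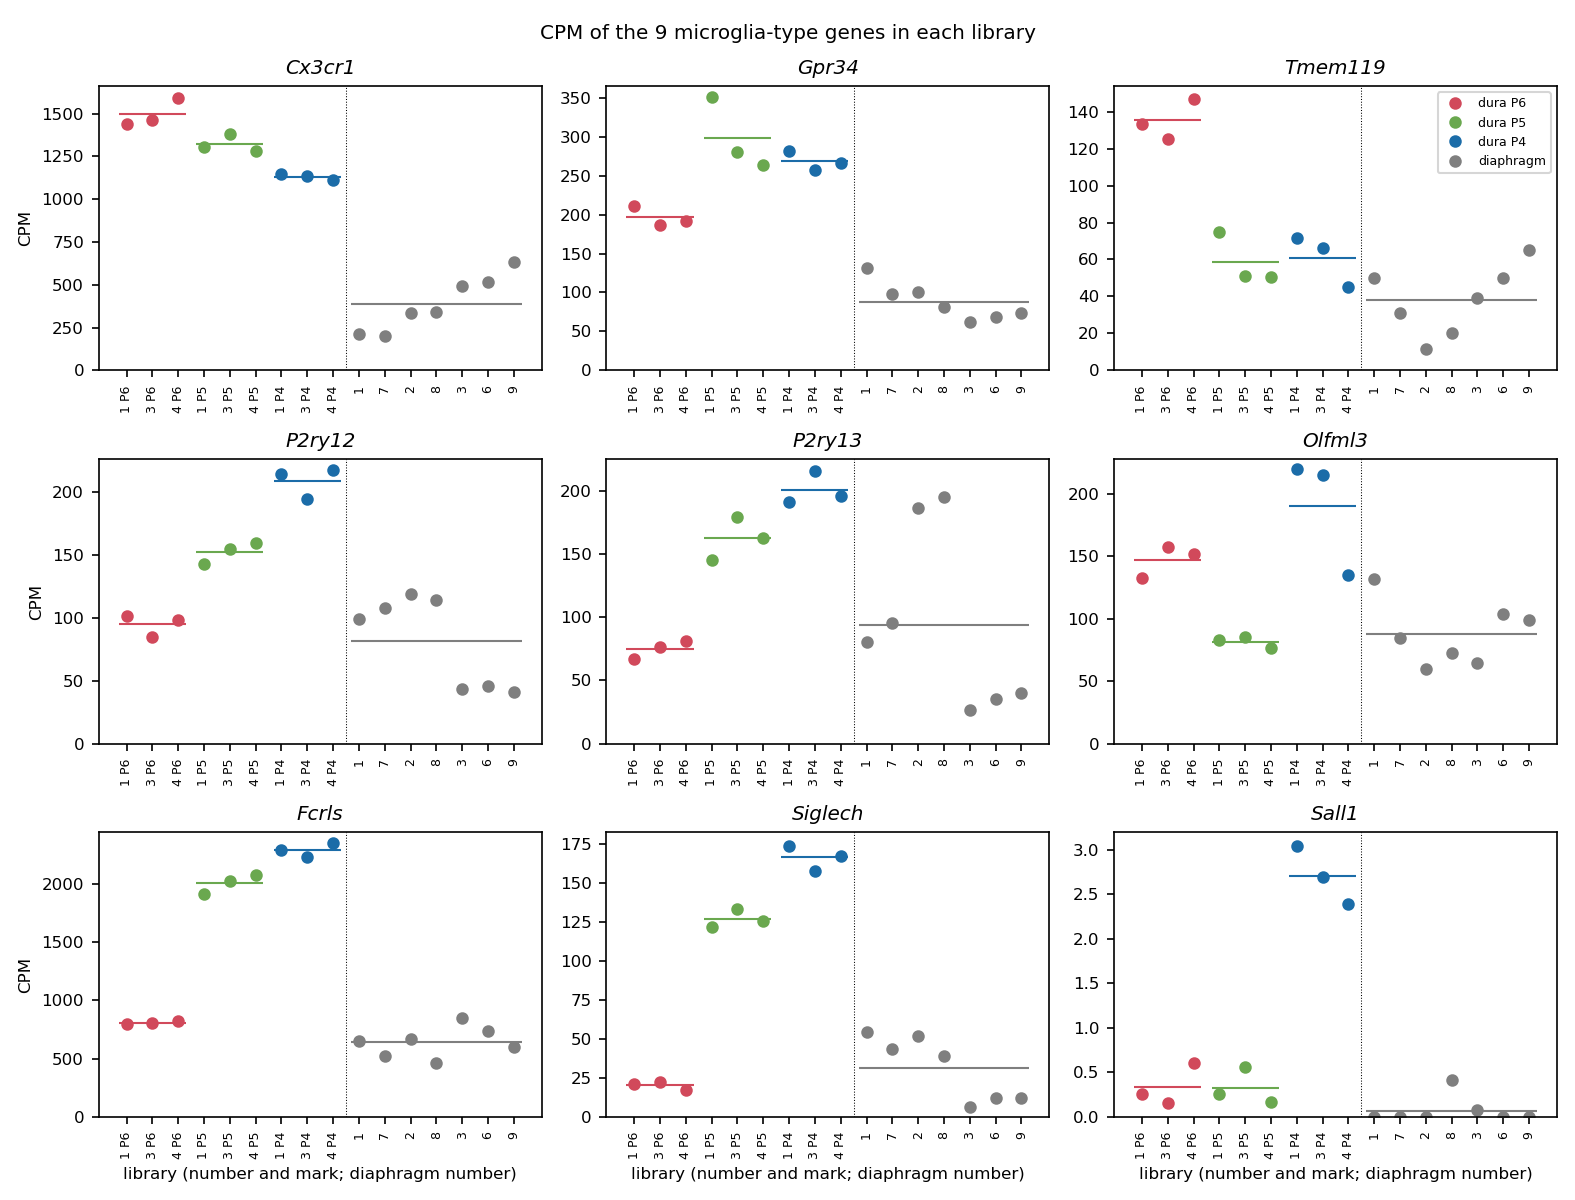
CPM (linear axes from 0) of each of the 9 genes in each library, with dural marks P6, P5 and P4 to the left of the dotted line and diaphragm to the right; points are libraries and lines are means. Siglech lies at 17.1 to 22.2 CPM in P6 and at 158 to 174 CPM in P4, and Tmem119 at 125 to 147 CPM in P6 and at 45.3 to 71.4 CPM in P4.

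Tmem119, a membrane protein used as a microglia marker, was highest in P6. It stood at 133, 125 and 147 CPM in P6, at 74.8, 51.1 and 50.3 CPM in P5 and at 71.4, 66.3 and 45.3 CPM in P4. The P6 values lay above all others, and P5 and P4 overlapped. The log2 fold change was 1.16 ± 0.18 for P6 against P4 (edgeR adjusted p = 0.000433) and 1.21 ± 0.18 for P6 against P5 (edgeR adjusted p = 0.000765). Tmem119 is also an osteoblast gene, and the dura lines bone. The 11 osteoblast markers summed to 64.2 to 89.0 CPM in P6, 52.8 to 112 CPM in P5 and 117 to 485 CPM in P4, so that sum was lower in P6 than in P4. Bglap, which encodes osteocalcin, was at 1.55 CPM or less in all dural libraries, but other markers of the list were higher. Alpl averaged 25.4 CPM in P5 and 138 CPM in P4 (-2.44 ± 0.24, edgeR adjusted p = 0.000111). Spp1 averaged 30.4 CPM in P5 and 115 CPM in P4, a difference that was not called. Of the 8 osteoblast markers tested, 2 fell and 0 rose in P5 against P4, and likewise in P6 against P4. Within P5 and within P4, the libraries ran in the same order for this sum as for Tmem119, with sums of 112, 57.9 and 52.8 CPM in P5 and 485, 241 and 117 CPM in P4 (libraries 1, 3 and 4). In P6 the order was not the same, with sums of 89.0, 73.4 and 64.2 CPM. The part of osteoblasts in the level of Tmem119 was not tested.

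Cx3cr1 was at 1437, 1462 and 1592 CPM in P6, at 1306, 1383 and 1284 CPM in P5 and at 1149, 1137 and 1111 CPM in P4. No marks overlapped, yet the steps were small. For P6 against P4 the log2 fold change was 0.41 ± 0.06 (edgeR adjusted p = 0.000431), whereas 0.18 ± 0.06 for P6 against P5 was not called (edgeR adjusted p = 0.0811). The monocyte chemokine receptor Ccr2, the only one of the 9 classical monocyte markers to rise in P6 against P4, averaged 1538 ± 93.9 CPM in P6, 267 ± 16.3 CPM in P5 and 61.7 ± 37.3 CPM in P4 (SD, n = 3 each). The 9 nonclassical monocyte markers, a cell type rich in Cx3cr1, summed to 1154 to 1530 CPM in P6, 893 to 1261 CPM in P5 and 747 to 941 CPM in P4. Of these 9 nonclassical markers, 6 rose and 0 fell in P6 against P4. Most of their sum was Nr4a1, which averaged 1059 CPM in P6 and 739 CPM in P4. Spn averaged 92.4 CPM in P6 and 8.20 CPM in P4, and differed by 3.50 ± 0.19 on the log2 scale (edgeR adjusted p = 1.03e-07). The defining marker Treml4 was at 8.53 ± 2.24 CPM in P6 and 2.001 ± 1.53 CPM in P4 (SD, n = 3 each). The 9 classical monocyte markers summed to 2177 to 2404 CPM in P6 and 2838 to 3133 CPM in P4. Most of the P4 sum was F13a1, also on the border macrophage list, which averaged 699 CPM in P6 and 2718 CPM in P4. Most of the P6 sum was Ccr2. Of these 9, 1 rose and 2 fell in P6 against P4. The 9 conventional dendritic cell markers summed to 148 to 177 CPM in P6, 160.4 to 175 CPM in P5 and 177 to 189 CPM in P4. Of the 8 of them that were tested, 5 rose and 3 fell in P6 against P4. The part of these cells in the level of Cx3cr1 was not tested.

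Sall1, the transcription factor that keeps microglia in their state, was barely counted. It had 14 counts over the 3 P6 libraries, 14 over the 3 P5 libraries and 121 over the 3 P4 libraries. In CPM this was 0.25, 0.16 and 0.61 in P6, 0.25, 0.55 and 0.16 in P5 and 3.04, 2.70 and 2.39 in P4. The P4 libraries were above all others, and P6 and P5 overlapped. The log2 fold change was -2.94 ± 0.74 for P6 against P4 (edgeR adjusted p = 0.00863), and P6 against P5 was not called at 0.14 ± 0.77, with a 95% interval of -1.37 to 1.65 from the SE. The 12 fibroblast markers moved in the same direction, with sums of 283 to 444 CPM in P6, 684 to 898 CPM in P5 and 2436 to 4474 CPM in P4, and 11 of 12 fell in P6 against P4. The part of fibroblasts in the counts of Sall1 was not tested.

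Olfml3, a secreted glycoprotein, followed neither pattern. It was at 133, 158 and 152 CPM in P6, at 83.3, 85.5 and 76.7 CPM in P5 and at 219.9, 216 and 135 CPM in P4. P5 was lowest without overlap, and P6 overlapped the wide range of P4. Its log2 difference in P6 against P5 was 0.85 ± 0.16 (edgeR adjusted p = 0.00333), and P6 against P4 gave -0.36 ± 0.16, which was not called (edgeR adjusted p = 0.105). Without library 4 of P4, the lowest of its mark, that difference was -0.55 and was called (edgeR adjusted p = 0.00302). The summed fibroblast markers were lower in P6 than in P5, where Olfml3 was higher in P6, and both were lower in P5 than in P4. Within P4, library 4 was the lowest both for these markers (2436 CPM) and for Olfml3. Their part in the result was not tested.

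In P6 against P5, 5 of the 9 members fell (Siglech, Fcrls, P2ry13, P2ry12 and Gpr34) and 2 rose (Tmem119 and Olfml3), beside 17.4% of all genes called (8.38% higher and 8.98% lower). In P5 against P4, 4 fell and 0 rose, beside 7.35% of all genes called (3.09% higher and 4.26% lower). Of all 973 genes called between P5 and P4, 42.03% were higher. With library totals 1042 genes were called and 22.2% of those were higher, and the median of all genes was -0.13. At an unadjusted p under 0.05, 1 was higher (Cx3cr1) and 6 were lower (Fcrls and P2ry13 beside the 4 called). Cx3cr1 was called higher with DESeq2 and with limma-voom. The log2 fold changes of the 4 that fell were -1.21 ± 0.16 for Olfml3 (edgeR adjusted p = 0.000787), -3.08 ± 0.74 for Sall1 (edgeR adjusted p = 0.0261), -0.45 ± 0.09 for P2ry12 (edgeR adjusted p = 0.0130) and -0.39 ± 0.10 for Siglech (edgeR adjusted p = 0.0394). The 5 others were not called. For Cx3cr1 the log2 fold change was 0.23 ± 0.06 (edgeR adjusted p = 0.0522) and for P2ry13 -0.30 ± 0.11 (edgeR adjusted p = 0.131). With library totals P2ry13 was called lower (-0.43, edgeR adjusted p = 0.0275), as Fcrls was. For Gpr34 the 95% interval ran from -0.05 to 0.37, and for Tmem119 from -0.41 to 0.31. The calls of Siglech and Sall1 between P5 and P4 were lost when any P5 or P4 library was left out, with edgeR adjusted p values of up to 0.125 and 0.146, and that of Siglech also without library 1 of P6 (edgeR adjusted p = 0.0507). The call of P2ry12 was lost without library 3 of P5 (edgeR adjusted p = 0.0589), and Cx3cr1 was called without library 1 of P6 (edgeR adjusted p = 0.0456) or library 4 of P6 (edgeR adjusted p = 0.0499).

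One choice of samples mattered for all 3 comparisons of marks. In a fit that also held the diaphragm libraries as a group of their own, and so shared one estimate of spread with them, the direction of each call was kept, but only Siglech and Fcrls stayed called in P6 against P4 and only Fcrls in P6 against P5, and 0 of the 9 were called by edgeR in P5 against P4 (1 lower at an unadjusted p under 0.05). The biological coefficient of variation was 0.489 in the fit of dura against diaphragm and 0.232 in the dural fit. The fit of dura against diaphragm pools the 3 marks, so differences between marks add to its value. No value was computed for the fit with diaphragm as a group beside the marks.

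**Figure D2:**
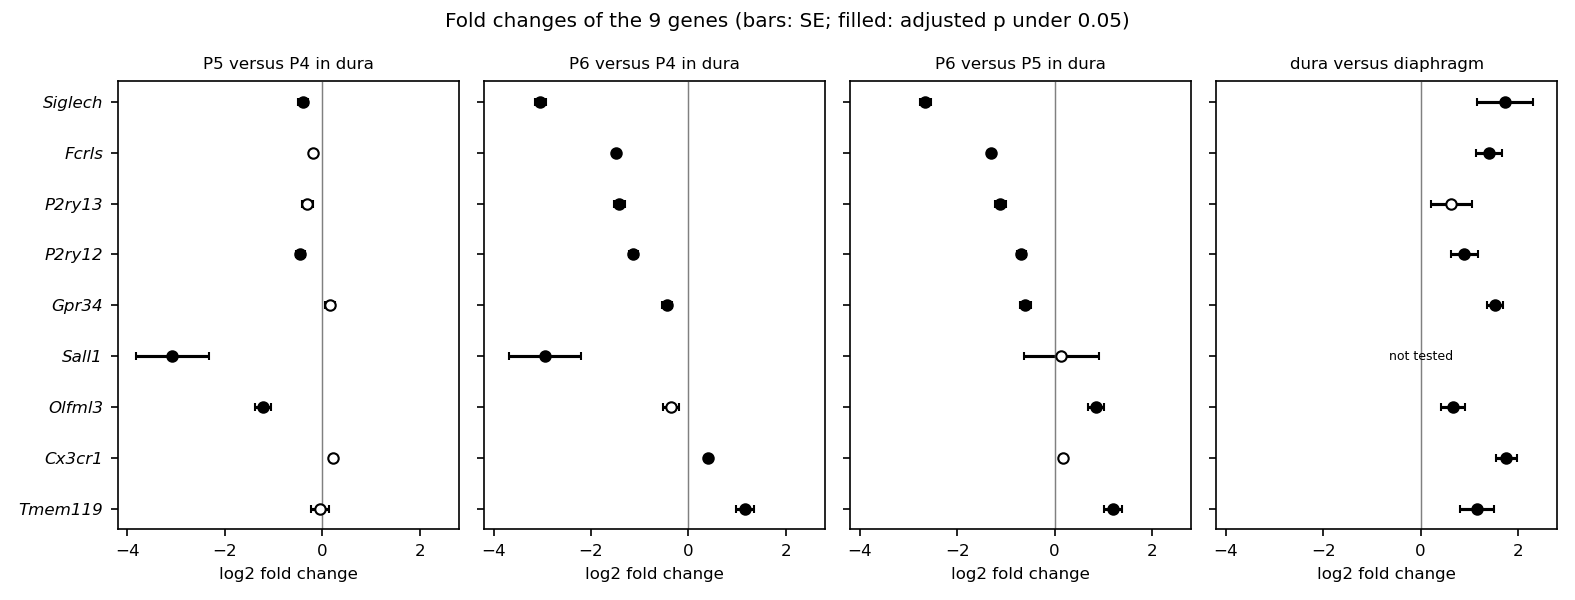
Log2 fold changes (points; bars are SE; filled points have an edgeR adjusted p under 0.05) of the 9 genes in P5 against P4, P6 against P4, P6 against P5 and dura against diaphragm. In P6 against P4 the values run from -3.04 for Siglech to 1.16 for Tmem119.

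The genes that moved with the members were read from lists of 20 border macrophage genes and 35 other microglia genes. Of the border macrophage genes, 16 of 20 fell in P6 against P4 and 4 rose, with a median log2 fold change of -1.23. Mrc1 averaged 2087 CPM in P6 and 4737 CPM in P4, and differed by -1.18 ± 0.11 on the log2 scale (edgeR adjusted p = 6.89e-06). Lyve1 averaged 8.42 CPM in P6 and 273 CPM in P4 (-4.99 ± 0.35, edgeR adjusted p = 6.87e-07), and the folate receptor Folr2 58.4 CPM in P6 and 581 CPM in P4 (-3.31 ± 0.16, edgeR adjusted p = 3.95e-08). Siglech, Fcrls, P2ry13, P2ry12 and Gpr34 thus fell in the same libraries as most of the border macrophage list.

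The other microglia genes also moved in both directions. Of 31 tested in P6 against P4, 9 rose and 12 fell, and their median log2 fold change was 0.13, beside -1.13 for the members. The crystallin Crybb1 averaged 0.83 CPM in P6 and 33.4 CPM in P4 (-5.22 ± 0.53, edgeR adjusted p = 1.35e-05), and the leukotriene C4 synthase Ltc4s 10.8 CPM in P6 and 79.1 CPM in P4 (-2.87 ± 0.13, edgeR adjusted p = 2.57e-08). Among those that rose, Selplg, the selectin ligand PSGL-1, averaged 355 CPM in P6 and 128 CPM in P4 (1.48 ± 0.08, edgeR adjusted p = 9.78e-08). In P5 against P4, 7 of 31 rose and 5 fell, and in P6 against P5, 5 rose and 12 fell.

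**Figure D3:**
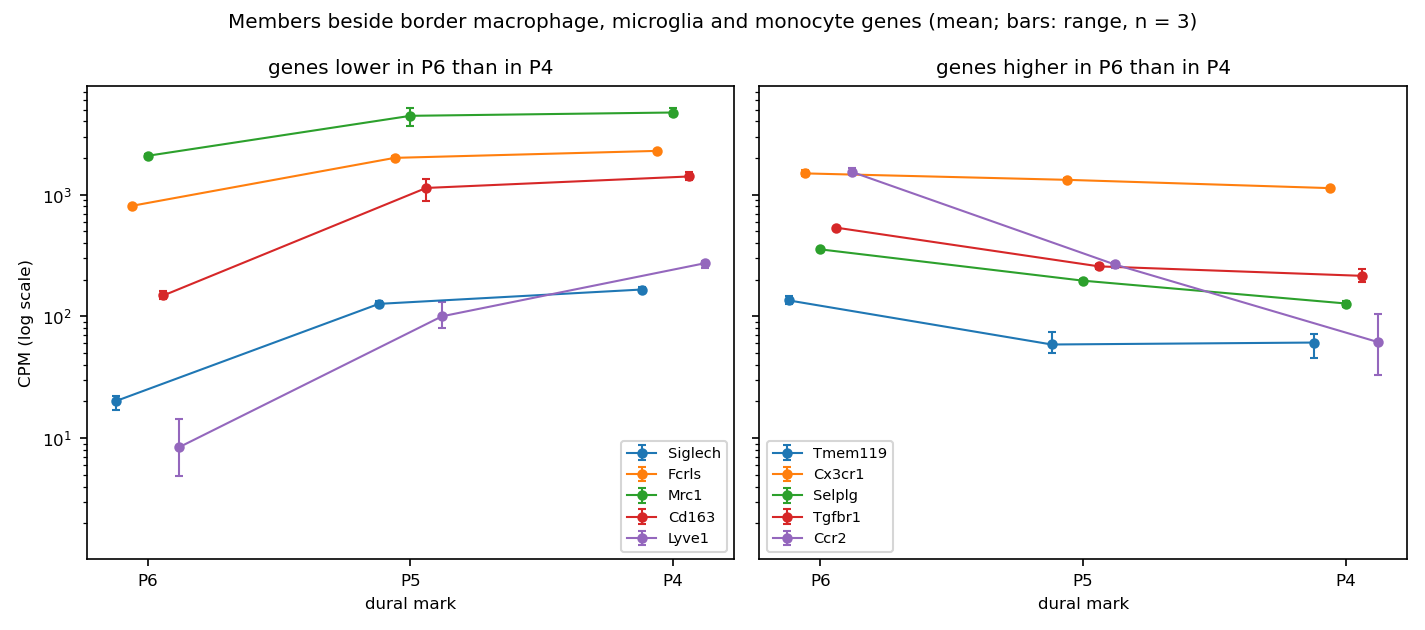
Mean CPM (log axis; bars are the range of 3 libraries) by dural mark for genes lower (left) and higher (right) in P6 than in P4. Siglech and Fcrls are drawn beside the border macrophage genes Mrc1, Cd163 and Lyve1, and Tmem119 and Cx3cr1 beside Selplg, Tgfbr1 and Ccr2. The genes were picked by direction and do not stand for their lists. In P6 against P4, 4 of 20 border macrophage genes rose, and 12 of 31 other microglia genes fell and 9 rose.

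Partners of the members were less uniform. Of 21 TGF-beta genes, 7 rose and 4 fell in P6 against P4. The receptor chain Tgfbr1 averaged 536 CPM in P6 and 215 CPM in P4 (1.32 ± 0.09, edgeR adjusted p = 9.14e-07), while its partner Tgfbr2 averaged 604 CPM in P6 and 929 CPM in P4 (-0.61 ± 0.09, edgeR adjusted p = 0.000225). For Cx3cr1, the sheddase Adam17 averaged 233 CPM in P6 and 144 CPM in P4 (0.70 ± 0.10, edgeR adjusted p = 0.000147), and the fractalkine gene Cx3cl1 6.38 CPM in P6 and 27.7 CPM in P4 (-2.12 ± 0.30, edgeR adjusted p = 0.000194). Of 15 other purine genes tested, 4 rose and 3 fell in P6 against P4. The ATP-gated channel P2rx7 averaged 156 CPM in P6 and 226 CPM in P4 (-0.53 ± 0.11, edgeR adjusted p = 0.00278). The adaptor of Siglech, Tyrobp, rose slightly, at 820.1 CPM in P6 and 687 CPM in P4 (0.26 ± 0.08, edgeR adjusted p = 0.0233), while Siglech itself fell.

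Scaled to exon length, Fcrls and Cx3cr1 led in every group. In P6 the CPM per kb of Fcrls (343 to 352) and Cx3cr1 (319 to 353) overlapped, whereas in P4 Fcrls was at 957 to 1007 and Cx3cr1 at 247 to 255 CPM per kb. Gpr34 came next in each mark, at 94.1 CPM per kb in P6, 143 in P5 and 128 in P4. P2ry12 and P2ry13 overlapped in P5 and P4. Tmem119 ranked 4 of 9 in P6, at 58.4 ± 4.74 CPM per kb, and 8 in P4, at 26.3 ± 5.98 CPM per kb (SD, n = 3 each), where it overlapped Olfml3. Siglech ranked 8 in P6 at 5.97 ± 0.80 CPM per kb and 6 in P4 at 49.1 ± 2.41 CPM per kb. Sall1 was last everywhere, at 0.51 ± 0.06 CPM per kb in P4, its highest group.

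**Figure D4:**
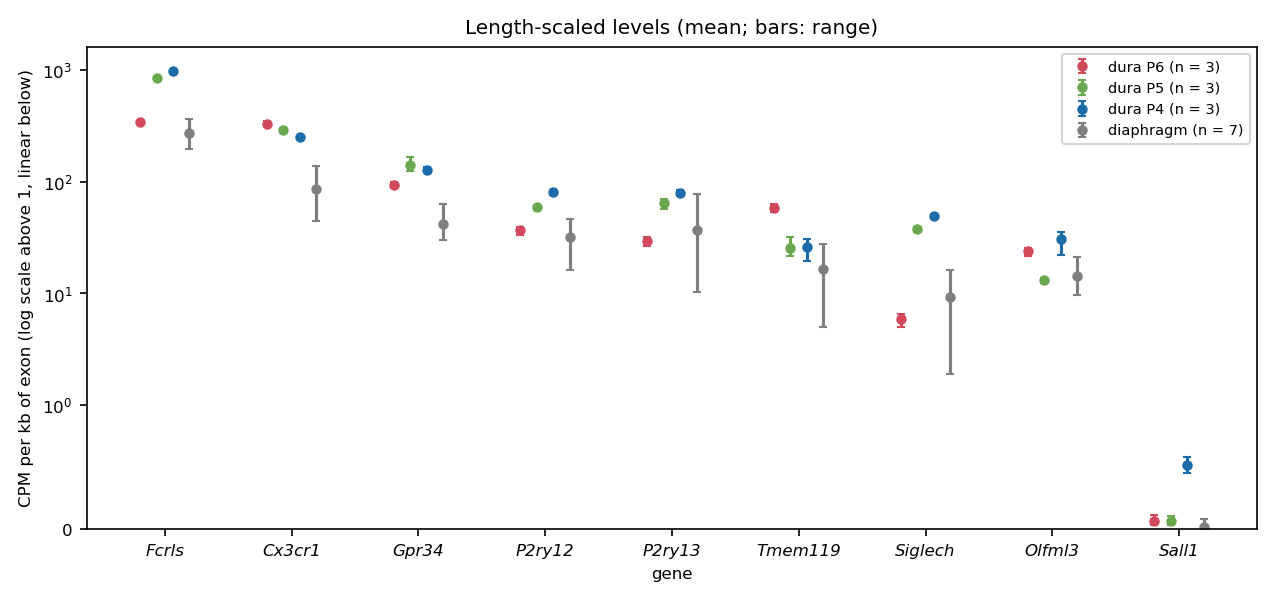
CPM per kb of exon (log scale above 1, linear below) of the 9 genes in dural marks P6, P5 and P4 and in diaphragm; points are means and bars the range. Fcrls and Cx3cr1 overlap in P6 only, and Tmem119 stands above Siglech in P6 and below it in P4.

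Between tissues, 7 of the 8 members that passed the filter on low counts were higher in dura and 0 were lower, in this fit or in any of 32 alternatives, beside 26.4% of 13136 genes called (11.2% higher and 15.3% lower). Sall1 did not pass the filter. Of all called genes 42.2% were higher. That share was 54.3% under upper-quartile scaling and 61.0% under library totals, where the median over all genes was 0.12 on the log2 scale. Only Cx3cr1 and Gpr34 had no overlap between tissues, and P6 libraries were the lowest of dura for Siglech, Fcrls, P2ry12 and P2ry13. How many of all genes had no overlap, between tissues or between marks, was not counted. Siglech ran from 17.1 through a median of 126 to 174 CPM in dura and from 6.44 through 39.1 to 54.7 CPM in diaphragm, and its log2 fold change was 1.73 ± 0.58 (edgeR adjusted p = 0.0353). P2ry12 gave 0.90 ± 0.28 (edgeR adjusted p = 0.0246), Tmem119 1.16 ± 0.34 (edgeR adjusted p = 0.0196) and Olfml3 0.67 ± 0.24 (edgeR adjusted p = 0.0484). P2ry13 was not called at 0.63 ± 0.41 (edgeR adjusted p = 0.277), and without diaphragm libraries 2 and 8 it was, at 1.40 (edgeR adjusted p = 0.0126). Markers of other cells differed between the tissues too. The 11 skeletal muscle markers summed to 2.26 to 12.8 CPM in dura and 144 to 332 CPM in diaphragm, and the 10 platelet markers to 4.77 to 10.2 CPM in dura and 18.01 to 171 CPM in diaphragm. Most of the platelet sum in diaphragm was Clec1b, at a mean of 53.9 CPM, with 0.57 CPM in dura. The 9 endothelial markers summed to 22.4 to 366 CPM in dura and 41.9 to 2922 CPM in diaphragm. The 12 fibroblast markers summed to 283 to 4474 CPM in dura and 327 to 16999 CPM in diaphragm. Both lists overlapped between tissues, and their highest sums were in diaphragm libraries 1 and 7. Of the endothelial markers 3 of 9 were called, and of the fibroblast markers 3 of 12, all lower in dura. The 11 osteoblast markers instead tended to be higher in dura, at 52.8 to 485 CPM, with 18.2 to 77.8 CPM in diaphragm. Of the 7 of them that were tested, 3 were higher in dura and 1 was lower. Alpl averaged 58.9 CPM in dura and 1.07 CPM in diaphragm (5.76 ± 0.96, edgeR adjusted p = 0.000322). The part of all these cells in the differences between tissues was not tested. Over 32 alternatives the calls of Cx3cr1, Gpr34 and Fcrls held in each, while that of Olfml3 was lost in 21, of Siglech in 15, of P2ry12 in 5 and of Tmem119 in 3. Leaving out single libraries ended the call of Siglech for each P5 or P4 library and for diaphragm 3, 6 or 9 (edgeR adjusted p 0.0529 to 0.0672). It ended the call of P2ry12 for diaphragm 6 (edgeR adjusted p = 0.0505), and that of Olfml3 for each P6 or P4 library and each diaphragm library other than number 1 (edgeR adjusted p 0.0550 to 0.0922).

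Among the diaphragm libraries, the members also ran in different directions. Siglech was lowest in libraries 3, 6 and 9 (6.44, 12.3 and 12.02 CPM), and libraries 1, 7, 2 and 8 gave 54.7, 43.2, 51.7 and 39.1 CPM. P2ry12 likewise gave 43.6, 45.7 and 40.9 CPM in libraries 3, 6 and 9, beside 99.0, 108, 118 and 114 CPM in 1, 7, 2 and 8. Libraries 3, 6 and 9 were thus lowest for both, and they were also lowest for P2ry13 and Gpr34. For P2ry13 these 3 libraries held 26.2, 34.9 and 40.2 CPM, libraries 1 and 7 held 80.7 and 95.03 CPM, and libraries 2 and 8 held 186 and 195 CPM. Cx3cr1 was instead highest there, at 496, 517 and 631 CPM, with 215, 199.5 and 333 CPM in libraries 1, 7 and 2 and 339.8 CPM in library 8. Fcrls, which set P6 apart in dura, overlapped, with 852, 742 and 604 CPM in libraries 3, 6 and 9 against 461 to 669 CPM in the others. Libraries 2 and 8 had the least Tmem119 (11.6 and 20.1 CPM), which lay between 31.3 and 64.9 CPM in the other diaphragm libraries. Markers of other cells varied among the same libraries. The platelet markers summed to 18.01 to 26.0 CPM in libraries 3, 6 and 9, 47.1 to 58.7 CPM in libraries 1 and 7, and 139.5 to 171 CPM in libraries 2 and 8, which is also the order of P2ry12 and P2ry13. Over the 7 diaphragm libraries this sum came mostly from 1 gene, Clec1b, at a mean of 53.9 CPM. Ppbp averaged 7.29 CPM there and Itga2b 3.76 CPM. The conventional dendritic cell markers stood at 583 to 788 CPM in libraries 3, 6 and 9, where Cx3cr1 was highest, and at 111 to 148 CPM in the 4 others. The plasmacytoid dendritic cell markers were at 457 to 499 CPM in libraries 3, 6 and 9, where Siglech was lowest, and at 665 to 745 CPM in the others. Their part in these levels was not tested. For Ccr2, libraries 3, 6 and 9 held 807 to 1045 CPM, libraries 2 and 8 both 129 CPM, and libraries 1 and 7 held 19.7 to 23.7 CPM. Sall1 had 9 counts in library 8, 2 in library 3 and 0 in each of the others, where a count of 0 allows up to 0.111 to 0.305 CPM by counting error alone. What the diaphragm numbers stand for is not given, so these libraries were not tested against each other.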

How the data were processed

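RNA-seq of sorted macrophages was read from 1 table of gene counts that the authors deposited, all whole numbers, with 41388 genes and 24 columns. The columns were read as raw counts, because their totals differ widely, although the table is called normalised. STAR 2.4.0j, featureCounts, DESeq2 1.20.0 and GRCm38 are named per the submitters' processing notes, and single-end reads of 75 bases from a kit without strand marking, per the labels' protocols. The 6 pairs of diaphragm columns of the same number had chi-square over degrees of freedom of 1.008 to 1.169 (other pairs at least 10.56) and were summed, and 2 columns under 10000 counts were left out, which left 16 libraries. Symbols and coordinates came from Ensembl names and GENCODE M21.

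Genes were filtered with filterByExpr and tested with edgeR 4.0.16 (R 4.3.3), TMM factors and quasi-likelihood tests, two-sided, with Benjamini-Hochberg adjustment over all genes and a threshold of 0.05. Dura was compared with diaphragm over all 16 libraries, and the dural marks in 1 fit of the 9 dural libraries. Fold changes are the group named before "against" or "versus" minus the other, with SE taken from the test statistic. The test was checked on simulated counts. CPM are counts per 1000000 with TMM factors, and CPM per kb divides by merged exon length. Intervals and limits cover counting error or the fit only, since reads carry no molecular identifiers. Alternatives were other scalings, DESeq2 1.42.0, limma-voom (limma 3.58.1), other filters, other sets of samples, the dural number as a block, and leaving out libraries.

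The members and gene lists were chosen with earlier results of these data known. Named genes were the 9 members, the 3 most abundant and up to 4 most changed called genes of each list with at least 20 CPM in the higher group, the 2 genes most like each member, and overlapping or neighbouring genes. Cd163 meets this rule in P6 against P5 and is also plotted against P4. The text does not name every gene taken by this rule. Treml4, Ccr9, Bglap and Csf1r were named after their values were seen. The labelled subsets C1 to C3 were not compared, as no column could be tied to one.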

Additional observations from a re-analysis of the deposited data

Results flagged for a closer look

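Sall1 in diaphragm library 8 stood apart from the other 6 diaphragm libraries, at 0.411 CPM from 9 counts, against 2 counts in library 3 and 0 in the other 5. It was 1 such value among 18 combinations of gene and tissue examined, and chance alone marks about 1 in 20.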

How the results depend on the processing

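Sall1 had the fewest counts of the 9 genes and the largest SE in each comparison of marks. For dura against diaphragm, 3472 genes were called and 1259 were with dural libraries summed per number, 2143 without P5. The 7 members higher in dura became 3 with dural libraries summed per number, 4 without P4 and 4 without diaphragm libraries 3, 6 and 9. Leaving out 1 library gave 2969 to 3585 genes, 4 to 7 members higher and 0 lower. Without a filter, Sall1 was tested and called (3.85, edgeR adjusted p = 0.0320).

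For P5 against P4, 973 genes were called, and 1587 without a filter. 1 member, Cx3cr1, was called higher with RLE factors, DESeq2 or limma-voom. Leaving out 1 library gave 544 to 1136 genes, 0 to 1 members higher and 1 to 4 lower. For P6 against P4, these ranges were 3717 to 4531 genes, 2 higher and 6 to 7 lower, and for P6 against P5, 1480 to 2503 genes, 2 higher and 5 lower. With diaphragm as a further group in the fit, P5 against P4 had 3 genes called and 0 members lower, P6 against P4 had 1292 genes, 0 members higher and 2 lower, and P6 against P5 had 172 genes, 0 higher and 1 lower. The signs of 2 uncalled values turned. Tmem119 in P5 against P4 (-0.05) was 0.076, 0.02, 0.05 and 0.06 without 1P4, 3P4, 3P5 and 4P5, in a range of -0.25 to 0.076. Sall1 in P6 against P5 (0.14) was -0.24 without 4P5 and -0.61 without 4P6, in a range of -0.61 to 0.73. The causes were not tested.

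Libraries of the same dural number did not deviate together in every pair (r of -0.01 to 0.16 over 9 pairs), and pairing was not established. For P5 and P4, each of the 3 pairs (0.072, 0.102 and 0.164) was above the highest value with another number. With the number as a replicate block, P5 against P4 had 1576 genes called, 1 member higher (Cx3cr1) and 6 lower (Fcrls and P2ry13 among them), P6 against P4 had 5116 genes, 2 members higher and 6 lower, and P6 against P5 had 3070 genes, 3 higher and 5 lower. Not every library correlated best with its own number.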

Other observations

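Genes with the pattern most like each member were ranked by Pearson's r of log2(CPM + 1) across the 16 libraries, among 6576 genes of at least 20 CPM. Libraries share tissue and mark, so r describes these libraries only. The integrin Itga6 was closest to Tmem119 (0.89). The border macrophage gene Ms4a7 was close to Gpr34 (0.98), and Kmo, an enzyme of tryptophan breakdown, to Fcrls (0.97). The prostaglandin-degrading enzyme Hpgd (0.98) and Ly6e (0.98) were closest to P2ry13. The lysosomal glucosidase Gaa was close to P2ry12 (0.97), Mfsd11 to Siglech (0.99) and Cyth4 to Cx3cr1 (0.97). The TGF-beta target Pmepa1 was closest to Olfml3 (0.87), and the vitamin C transporter Slc23a2 to Sall1 (0.90).

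Within dura, across 9 libraries, Siglech had r of 0.996 with Fcrls, 0.97 with P2ry13 and -0.92 with Tmem119. Within diaphragm, across 7 libraries, Siglech had r of 0.95 with P2ry12 and -0.61 with Fcrls. The relation of Siglech to Fcrls thus had opposite signs in the 2 tissues, a difference that was not tested.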
